A study of Mus musculus with 4 samples.

Results

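The 37 genes described here code for proteins of the basement membrane and the surrounding matrix, for the enzymes that fold and crosslink collagen, and for the proteases and inhibitors that turn matrix over. They were taken by symbol from a list, and all 37 were found once among the 31053 genes of the deposited tables. The mRNA of these genes was counted by droplet-based 3′ single-cell RNA sequencing in mammary epithelial cells of FVB mice aged 9 weeks. Their genotype was Tfap2c fl/fl with Krt5-CreERT2, a Cre recombinase made from the Krt5 promoter and made active by 4-hydroxytamoxifen (4OHT). 2 libraries came from mice given corn oil, the vehicle, and 2 from mice given 4OHT, with injections from week 4, so both groups carry the floxed alleles and the Cre. The series asked what loss of AP-2γ, the transcription factor coded by Tfap2c, does to mammary stem cells.

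The basement membrane is a sheet of matrix that wraps the mammary ducts and touches the basal (myoepithelial) layer of the epithelium. Laminin trimers of an α, a β and a γ chain and networks of type IV collagen form the sheet, nidogens and the heparan sulfate proteoglycans perlecan and agrin link the networks, and dystroglycan and integrins hold cells to it. The luminal cells, which include progenitors of the milk-making lineage and hormone-sensing cells with receptors for steroid hormones and prolactin, lie inside the basal layer. Fibroblasts and endothelial cells make matrix of their own, so the same gene can be used by several cell types of the gland.

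Cells were put into classes by keratins and a few other genes, and no member of the list was used for this. At least 1000 UMIs (unique molecular identifiers, each counted as 1 RNA molecule) were required. Basal cells had at least 5 UMIs of Krt5, Krt14, Krt17 and Acta2 together and over 3 times those of Krt8, Krt18 and Krt19, and luminal cells the reverse. Luminal cells were hormone-sensing where Ly6d, Fxyd2 and Gpx3 gave at least 3 UMIs and more than Wfdc18, Csn3 and Ltf, and otherwise progenitors. Stromal cells had at least 6 UMIs of Col1a1, Col3a1 and Dcn and fewer than 5 of the epithelial genes, and endothelial-like and leukocyte-like cells were gated on their own genes. The gates held 7028 basal, 5629 luminal progenitor, 1168 hormone-sensing, 103 stromal, 268 endothelial-like and 50 leukocyte-like cells of 18223 deposited barcodes. Total UMIs per library ran from 17351950 to 22017878.

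Markers outside the gates followed the class names. All 6 basal markers tested (Oxtr, Myh11, Trp63, Mylk, Cnn1 and Tagln) were higher in basal than in luminal progenitor cells, all 4 progenitor markers were lower there, and all 5 hormone-sensing markers were lower in progenitors than in hormone-sensing cells. Tfap2c itself, the targeted gene, stood at 321 ± 48.8 CPM (UMIs of the gene per 1000000 UMIs of the class; mean ± SD, n = 4) in basal cells, and its 4OHT and corn oil libraries overlapped, so its level did not separate the labels. A 3′ count can still register a transcript that lacks an internal exon. Cells with at least 5 UMIs of both keratin sets, which fell into no class, numbered 342 in corn oil replicate 1, 284 in corn oil replicate 2, 837 in 4OHT replicate 1 and 873 in 4OHT replicate 2. Pairs of libraries shared 18 to 36 cell barcodes.

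The type IV collagen genes Col4a1 and Col4a2 are shown first because they share a start region and were high in the same class. Col4a1 (ENSMUSG00000031502, chromosome 8, 11198423 to 11312826, minus strand) and Col4a2 (ENSMUSG00000031503, chromosome 8, 11312805 to 11449287, plus strand) run away from each other and overlap by 22 bases at their starts (GENCODE M21, GRCm38). RefSeq windows on GRCm38.p6, from 250 bases before to 50 bases after each start, were found for 27 of the 37 genes, and those of this pair share 78 bases. The pair is printed 5′ to 3′ along each gene's own strand, and capitals mark the AP-2 letters GCCNNNGGC, searched on both strands.
Col4a1 (chr8:11312777-11313076, minus strand): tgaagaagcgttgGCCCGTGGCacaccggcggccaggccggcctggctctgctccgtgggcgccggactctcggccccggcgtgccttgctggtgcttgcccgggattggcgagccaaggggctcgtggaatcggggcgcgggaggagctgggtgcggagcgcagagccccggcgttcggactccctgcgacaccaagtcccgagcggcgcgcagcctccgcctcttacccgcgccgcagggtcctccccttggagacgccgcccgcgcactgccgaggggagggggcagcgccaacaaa
Col4a2 (chr8:11312555-11312854, plus strand): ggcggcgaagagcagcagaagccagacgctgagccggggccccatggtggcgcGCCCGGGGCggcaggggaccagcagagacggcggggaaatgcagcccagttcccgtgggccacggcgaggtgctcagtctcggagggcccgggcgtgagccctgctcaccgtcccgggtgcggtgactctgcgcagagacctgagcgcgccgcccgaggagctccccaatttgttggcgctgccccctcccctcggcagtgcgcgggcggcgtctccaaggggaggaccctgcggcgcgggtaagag
Each window held 1 match, at separate places: 11313055 to 11313063 for Col4a1, inside Col4a2, and 11312608 to 11312616 for Col4a2, inside Col4a1. Over the 27 genes with a window, 6 held the AP-2 letters (Col4a1, Col4a2, Hspg2, Col16a1, Postn and Fbln1), in 20.6% of their 34 windows against 16.6% of all 32851 windows of the same length. The windows of Fbln1 overlap and hold the same match, which was counted for each window. The GC box letters GGGCGG stood in 73.5% of the list's windows and in 35.7% of all windows. The TEAD letters GGAATG stood in 14.7% of both, and the AP-1 letters TGANTCA in 0 of 34 against 7.81% of all windows. Both strands were read for each motif, and matches of different motifs may overlap.

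Below, values per library are given in the order corn oil replicate 1, corn oil replicate 2, 4OHT replicate 1 and 4OHT replicate 2, as CPM of the class in that library. They are counts of 3′ ends and are not divided by transcript length, so levels are compared between cells, not between genes. Summed over the 37 genes, basal cells held 4803, 4637, 3952 and 3806 CPM, luminal progenitors 503, 556, 599 and 397 CPM and hormone-sensing cells 438, 392, 447 and 373 CPM. Every basal library was above every luminal library. The stromal sums of the 2 libraries with at least 20 stromal cells, corn oil replicate 2 and 4OHT replicate 1, were 8772 and 6187 CPM, and the endothelial-like sums of the 3 libraries with at least 20 such cells were 3962, 3165 and 3435 CPM. By mean CPM, 21 of the 37 genes were highest in stromal cells, 12 in basal cells, 3 in endothelial-like cells and 1, Lama5, in hormone-sensing cells. The libraries of the highest class did not overlap those of the second class for 13 of these stromal genes, 8 basal and 2 endothelial-like genes, and Lama5 overlapped with endothelial-like cells. The stromal means rest on 2 libraries. Within the epithelium, basal cells were highest for 34 genes, luminal progenitors for Thbs2 (1 UMI in all) and Timp2, and hormone-sensing cells for Lama5.

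**Figure D1:**
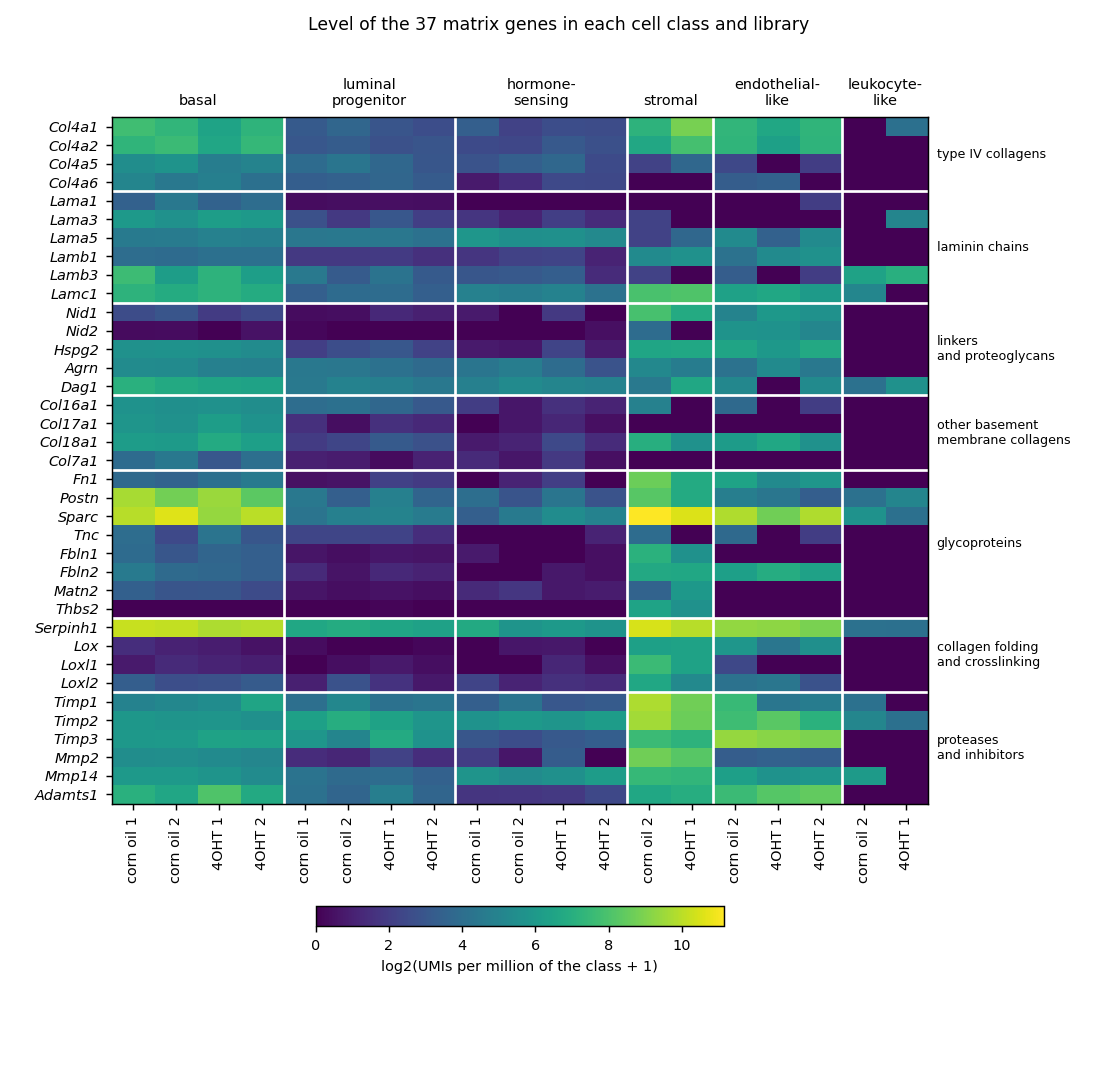
Level of each of the 37 genes as log2(CPM + 1), the colour, with genes in rows by role and the libraries of each cell class with at least 20 cells in columns. The basal, stromal and endothelial-like columns are bright for Sparc, Serpinh1, Col4a1, Col4a2 and Col18a1, and the luminal columns are dark for most genes. Col17a1 and Col7a1 are brighter in the basal columns than in any other column. Lama5 has its highest mean in the hormone-sensing columns, which overlap the endothelial-like ones.

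Basal and luminal progenitor cells were compared within libraries, with the library as a term of the model. Of 33 members that passed the filter on low counts, 30 were higher in basal cells and 1, Timp2, was lower, by edgeR's quasi-likelihood test with Benjamini-Hochberg adjustment over all genes (threshold 0.05). Over all 10593 genes tested, 29.5% were higher and 26.3% lower in basal cells. The median log2 difference of the members was 2.93 and that of all genes 0.04. Counting single libraries with a prior of 1 UMI, 30 members were higher in basal cells in 4 of 4 libraries. These are not the same 30: they hold Lama5, which was not called, but not Loxl2, which was called and had mixed signs. The members left out for low counts were Nid2, Thbs2, Lox and Loxl1. Against hormone-sensing cells, 30 of 33 members were higher in basal cells and 1, Lama5, was lower. Over all 10042 genes tested there, 31.6% were higher and 27.9% lower in basal cells. The members' median log2 difference was 3.90. By single libraries, 29 members were higher in basal cells in 4 of 4, 1 was lower and 3 were mixed. Nid1, which was called, was among the mixed. The filter took both classes of a comparison together, so a member could pass through the counts of 1 class alone. In the 4OHT comparisons, made within 1 class, 27 members passed the filter in progenitors and 13 in hormone-sensing cells. Members with few luminal counts could hardly be called lower in basal cells, so the totals of 30 rest in part on such members.

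All 4 type IV collagen chains were higher in basal than in either luminal class. Col4a1 stood at 212, 162, 87.4 and 151 CPM in basal cells and 7.98, 11.7, 6.66 and 5.15 CPM in luminal progenitors, a log2 difference of 3.97, SE 0.21 (edgeR adjusted p = 1.35e-07). Its partner Col4a2, whose chain is wound into the same triple helix, stood at 156, 195, 96.8 and 173 CPM against 7.16, 8.59, 5.71 and 6.76 CPM, a difference of 4.15, SE 0.16 (edgeR adjusted p = 2.27e-08). No basal library overlapped a progenitor library for either gene. Col4a5 (ENSMUSG00000031274, chromosome X, 141475385 to 141689234, plus strand) and Col4a6 (ENSMUSG00000031273, chromosome X, 141165403 to 141474076, minus strand) form a second head-to-head pair, 1308 bases apart. Col4a5 stood at 43.00, 51.7, 25.4 and 30.7 CPM in basal cells and 14.04, 19.3, 12.4 and 6.92 CPM in progenitors, a log2 difference of 1.26, SE 0.19. Col4a6 stood at 32.4, 21.4, 26.8 and 16.5 CPM against 9.22, 10.1, 11.7 and 8.21 CPM, a difference of 1.01, SE 0.17. Basal libraries were again above all progenitor libraries, by less than for Col4a1 and Col4a2. Col4a5 and Col4a6 were at most 12.3 CPM in the stromal sums of libraries with at least 20 stromal cells.

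Among the laminin chains, 5 of 6 were higher in basal cells than in either luminal class. Lama1, the α1 chain, stood at 10.1, 21.1, 10.4 and 14.9 CPM in basal cells and 0.275, 0.330, 0.357 and 0.322 CPM in progenitors (log2 5.06, SE 0.30). It had 0 UMIs in all 4 hormone-sensing sums, and with 3 counts over the group as the limit it was at least 33.1-fold lower there. Lama3 and Lamb3 code for chains of laminin-332, the laminin of hemidesmosomes, which fix basal cells to the sheet. Lama3 stood at 63.8, 48.9, 72.4 and 64.4 CPM in basal cells and 5.78, 2.64, 7.26 and 3.22 CPM in progenitors (log2 3.46, SE 0.21). Lamb3 stood at 198, 72.95, 149 and 74.7 CPM against 21.9, 8.10, 18.1 and 7.89 CPM (log2 2.87, SE 0.13). In both classes the libraries numbered 1 held more Lamb3 than those numbered 2, while basal and luminal libraries did not overlap. Lamb1 and Lamc1, the β1 and γ1 chains of the common laminins, differed by log2 2.34, SE 0.20 and 3.20, SE 0.15.

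Lama5, the α5 chain of the laminins under mature epithelia, was the exception among the chains. It stood at 22.2, 23.7, 28.6 and 27.2 CPM in basal cells, 20.5, 21.1, 20.2 and 16.9 CPM in luminal progenitors and 57.8, 45.9, 47.6 and 37.01 CPM in hormone-sensing cells. Each hormone-sensing library was above each basal and each progenitor library. The log2 difference of basal against hormone-sensing cells was −0.93, SE 0.19 (edgeR adjusted p = 4.76e-04), and that of progenitors against hormone-sensing cells −1.03, SE 0.14 (edgeR adjusted p = 3.96e-05). The basal and progenitor levels differed by 0.09, SE 0.15, which did not pass the test (edgeR adjusted p = 0.662), and without 4OHT replicate 2 this value was −0.04. Lama5 (ENSMUSG00000015647, chromosome 2, 180176373 to 180225859, minus strand) was supported by 321 UMIs over the 4 hormone-sensing sums. The γ1 partner Lamc1 was also higher in hormone-sensing cells (29.3, 25.3, 29.6 and 17.3 CPM) than in progenitors (9.49, 13.7, 14.5 and 9.50 CPM), with a log2 difference of progenitors against hormone-sensing cells of −0.88, SE 0.18 (edgeR adjusted p = 0.00104).

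The linkers followed the basal pattern where they could be tested. Perlecan (Hspg2) stood at 49.1, 49.9, 47.8 and 40.1 CPM in basal cells and 3.16, 5.29, 7.14 and 3.54 CPM in progenitors (log2 3.03, SE 0.21), and dystroglycan (Dag1), a receptor for laminin, at 134, 108, 90.1 and 85.8 CPM against 21.5, 30.2, 27.02 and 21.1 CPM (log2 1.78, SE 0.16). Agrin (Agrn) differed less, at 40.7, 38.8, 27.96 and 26.9 CPM against 20.8, 20.5, 17.02 and 13.5 CPM (log2 0.62, SE 0.14, edgeR adjusted p = 0.00374), and its difference of 0.29 did not pass with Acta2 left out of the basal gate (edgeR adjusted p = 0.183). Nidogen-1 (Nid1) was low in the epithelium, at 5.07, 6.73, 2.86 and 4.40 CPM in basal cells, with a log2 difference to progenitors of 2.30, SE 0.50, which was 3.09 without 4OHT replicate 1. Nidogen-2 (Nid2) gave 7 UMIs over the 4 basal sums and 1 in each luminal class, and stood at 52.1, 49.9 and 33.5 CPM in the endothelial-like sums of corn oil replicate 2 and both 4OHT libraries. Both nidogens thus had their highest CPM outside the epithelium, Nid1 in stromal and Nid2 in endothelial-like cells.

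All 4 of the other basement membrane collagens were higher in basal than in both luminal classes. Col17a1, a transmembrane collagen of the hemidesmosome, stood at 54.5, 49.6, 72.3 and 51.2 CPM in basal cells and 1.93, 0.330, 1.90 and 1.45 CPM in progenitors (log2 5.02, SE 0.27). Col7a1, which forms the fibrils that anchor the sheet to the stroma, stood at 13.7, 20.95, 7.24 and 15.8 CPM against 0.963, 0.826, 0.238 and 1.13 CPM (log2 3.90, SE 0.28). Col18a1, a collagen that carries heparan sulfate, stood at 69.7, 66.4, 112 and 78.3 CPM against 2.89, 3.97, 7.97 and 5.80 CPM (log2 3.73, SE 0.18). For these 3 genes each basal library was above each progenitor library. Col16a1, which is found beside basement membranes, differed by 1.63, SE 0.17 and was higher in progenitors (14.9, 16.5, 12.3 and 7.73 CPM) than in hormone-sensing cells (3.08, 0.588, 1.93 and 1.18 CPM), by log2 3.13, SE 0.34 (edgeR adjusted p = 5.02e-06).

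Of the glycoproteins, 7 of 8 could be tested in basal against progenitor cells, and all 7 were higher in basal cells. Sparc (ENSMUSG00000018593, chromosome 11, 55394500 to 55423183, minus strand), a collagen-binding protein, stood at 987, 1577, 659.6 and 1029.6 CPM in basal cells, 18.7, 27.8, 31.1 and 23.99 CPM in progenitors and 9.25, 23.5, 41.8 and 29.5 CPM in hormone-sensing cells (basal against progenitor, log2 5.06, SE 0.25). Periostin (Postn) stood at 823, 434, 720.2 and 327 CPM in basal cells, 21.2, 9.42, 28.3 and 10.9 CPM in progenitors and 15.4, 6.47, 19.3 and 6.30 CPM in hormone-sensing cells (log2 4.79, SE 0.18). Both genes separated basal from luminal cells in every library. The leukocyte-like cells, which should lack Postn, held 16.8 and 32.6 CPM of it from 3 UMIs, which overlaps the range of both luminal classes. Fibronectin (Fn1), which cells bind through integrins, stood at 12.9, 10.9, 16.3 and 22.9 CPM in basal cells and 0.413, 0.496, 3.45 and 2.74 CPM in progenitors (log2 2.93, SE 0.35, and 3.53 without 4OHT replicate 1). The fibulins Fbln1 and Fbln2 differed by 4.06 and 3.31, the matrilin gene Matn2 by 3.71 and tenascin-C (Tnc) by 1.37. Thbs2, a thrombospondin, had 0 UMIs in all 4 basal sums.

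The gene for HSP47, Serpinh1, a chaperone of collagen in the endoplasmic reticulum, stood at 1204, 1109, 883 and 954 CPM in basal cells, 100.04, 115, 94.02 and 83.4 CPM in progenitors and 108, 53.5, 63.1 and 51.6 CPM in hormone-sensing cells. Basal cells were higher than progenitors by log2 3.12, SE 0.11 (edgeR adjusted p = 1.47e-08), or 8.71-fold. The lysyl oxidases, which crosslink collagen and elastin, were low in the epithelium. Lox and Loxl1 were at most 1.73 CPM in any epithelial sum and were not tested there. Loxl2 differed by 1.43, SE 0.49 between basal and progenitor cells (edgeR adjusted p = 0.0298). This call was lost without corn oil replicate 1 (edgeR adjusted p = 0.144) and without 4OHT replicate 2 (edgeR adjusted p = 0.124), and the difference was 2.25 without corn oil replicate 2.

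Proteases and inhibitors did not follow one pattern. Mmp2, the type IV collagenase known as gelatinase A, stood at 43.2, 44.96, 39.9 and 33.4 CPM in basal cells and 1.65, 1.32, 3.57 and 1.77 CPM in progenitors (log2 3.97, SE 0.26). Adamts1, a protease that cuts proteoglycans, stood at 133, 97.1, 269 and 109 CPM against 16.6, 11.4, 26.4 and 11.4 CPM (log2 2.89, SE 0.13). For both genes each basal library was above each progenitor library. Basal cells did not hold the highest mean of either gene, which was stromal for Mmp2, at 421 and 306 CPM, and endothelial-like for Adamts1.

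Mmp14, the membrane-bound protease that activates Mmp2, stood at 62.8, 61.9, 52.9 and 40.1 CPM in basal cells, 18.03, 13.4, 14.5 and 10.1 CPM in progenitors and 53.2, 40.6, 47.00 and 70.5 CPM in hormone-sensing cells. The log2 difference of progenitors against hormone-sensing cells was −1.70, SE 0.19 (edgeR adjusted p = 7.56e-06), with progenitors lower in 4 of 4 libraries. Basal and hormone-sensing cells differed by −0.03, SE 0.19, with overlapping libraries (edgeR adjusted p = 0.899), and without 4OHT replicate 2 this value was 0.25.

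Of the 3 tissue inhibitors of metalloproteinases, Timp1 and Timp3 had the order basal, luminal progenitor, hormone-sensing by mean CPM, while Timp2 was highest in progenitors. Timp3, the inhibitor that binds to the matrix, stood at 61.4, 63.2, 84.4 and 82.3 CPM in basal cells, 57.4, 32.5, 112 and 51.04 CPM in progenitors and 6.94, 5.29, 7.73 and 9.06 CPM in hormone-sensing cells. Its basal and progenitor levels overlapped (log2 0.04, SE 0.22, edgeR adjusted p = 0.892), with the sign turned without corn oil replicate 2 (−0.20) and without 4OHT replicate 2 (−0.10), and hormone-sensing cells were below both. Progenitors exceeded hormone-sensing cells by 3.24, SE 0.22 (edgeR adjusted p = 7.22e-08).

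Timp2 stood at 59.1, 54.1, 55.1 and 47.8 CPM in basal cells, 79.9, 123, 84.98 and 55.2 CPM in progenitors and 50.9, 64.7, 55.4 and 69.7 CPM in hormone-sensing cells. It was the single member lower in basal than in progenitor cells, with a log2 difference of −0.89, SE 0.15 (edgeR adjusted p = 4.84e-04), and in each library the basal level was the lower one. Basal and hormone-sensing levels of Timp2 overlapped (log2 −0.22, SE 0.16, edgeR adjusted p = 0.235). Timp1 (ENSMUSG00000001131, chromosome X, 20870166 to 20874735, plus strand) stood at 30.03, 34.4, 42.3 and 89.7 CPM in basal cells, 15.96, 34.4, 16.7 and 19.00 CPM in progenitors and 9.25, 18.2, 7.08 and 8.27 CPM in hormone-sensing cells. Basal and progenitor libraries overlapped, and the log2 difference was 0.84, SE 0.28 (edgeR adjusted p = 0.0240). It was 0.79 without 4OHT replicate 1 (edgeR adjusted p = 0.0602) and 0.45 without 4OHT replicate 2 (edgeR adjusted p = 0.148), so either 4OHT library decided this call.

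**Figure D2:**
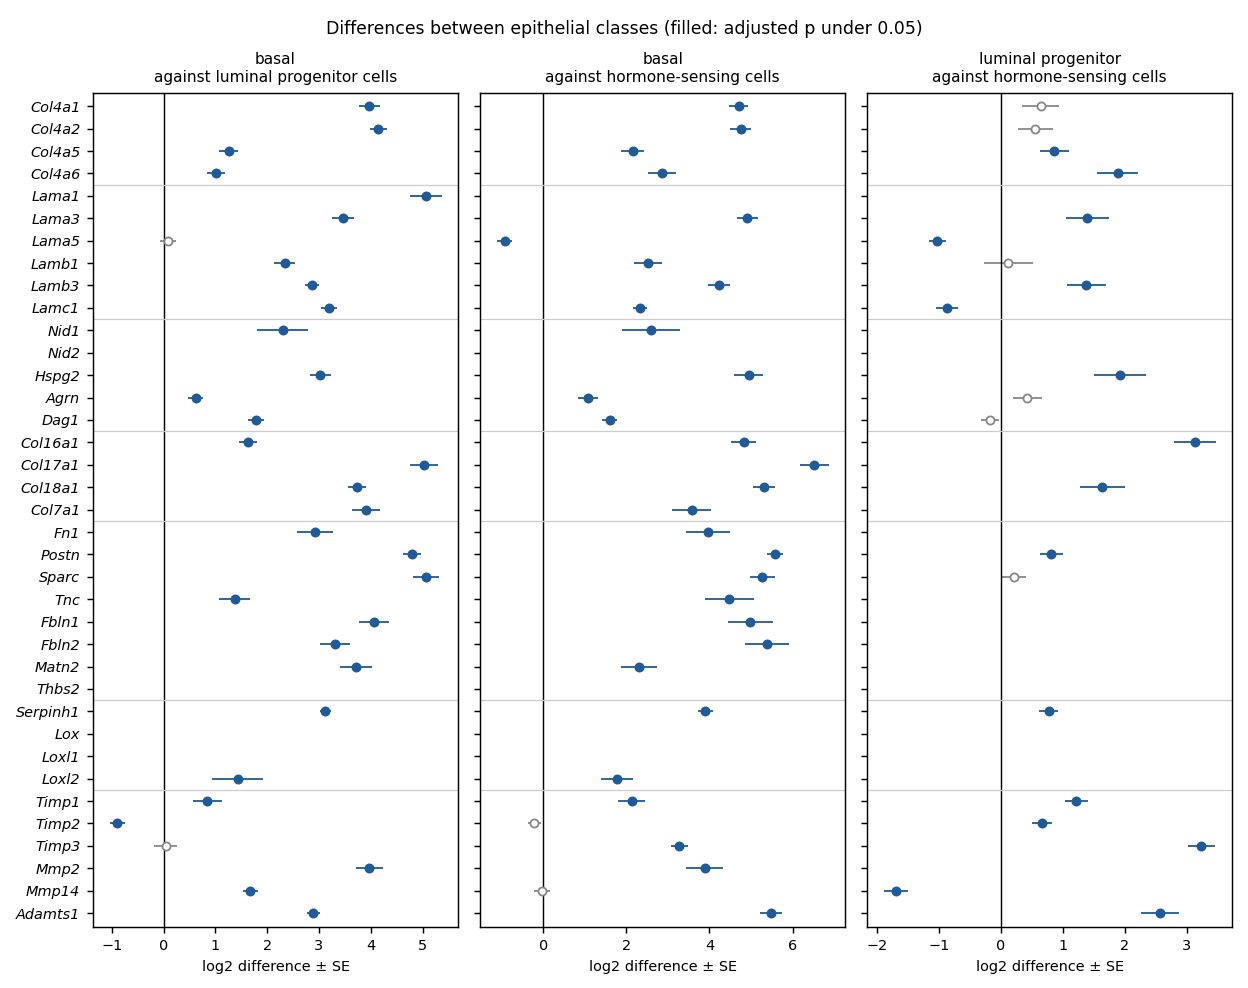
Log2 difference ± SE (x axis) of each tested member (rows, by role) between pairs of epithelial classes, from 4 libraries each. Filled points passed the test, and nearly all filled points of the first 2 panels lie right of 0, apart from Timp2 against luminal progenitors and Lama5 against hormone-sensing cells. Lama1 against hormone-sensing cells is left out because those sums held 0 UMIs.

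The 2 luminal classes differed less. Of 22 members tested in progenitors against hormone-sensing cells, 13 were higher and 3 (Mmp14, Lama5 and Lamc1) lower in progenitors, beside 25.9% higher and 26.1% lower among 9514 genes. The members' median log2 difference was 0.79. Timp3 and Col16a1 had the largest differences toward progenitors, followed by Adamts1 (2.56, SE 0.31), Hspg2 (1.93, SE 0.42) and Col4a6 (1.89, SE 0.33). The other 8 called toward progenitors were Col18a1 (1.64), Lama3 (1.40), Lamb3 (1.38), Timp1 (1.22), Col4a5 (0.86), Postn (0.81), Serpinh1 (0.77) and Timp2 (0.66). With no library term, Postn (edgeR adjusted p = 0.130) and Col4a5 (edgeR adjusted p = 0.0531) did not pass. Timp2 did not pass by total counts (edgeR adjusted p = 0.0556). Single libraries of Col4a5, Serpinh1 and Timp2 did not all have the same sign. Without 4OHT replicate 1 the difference of Hspg2 was 2.60. Col4a1 (0.64), Col4a2 (0.56) and Agrn (0.43) were among the 6 that did not pass, but each passed under other settings: Col4a2 without 4OHT replicate 1 (edgeR adjusted p = 0.0469), Agrn without corn oil replicate 2 (edgeR adjusted p = 0.0232) and Col4a1 with a keratin ratio of 10 in the gate (edgeR adjusted p = 0.0373).

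**Figure D3:**
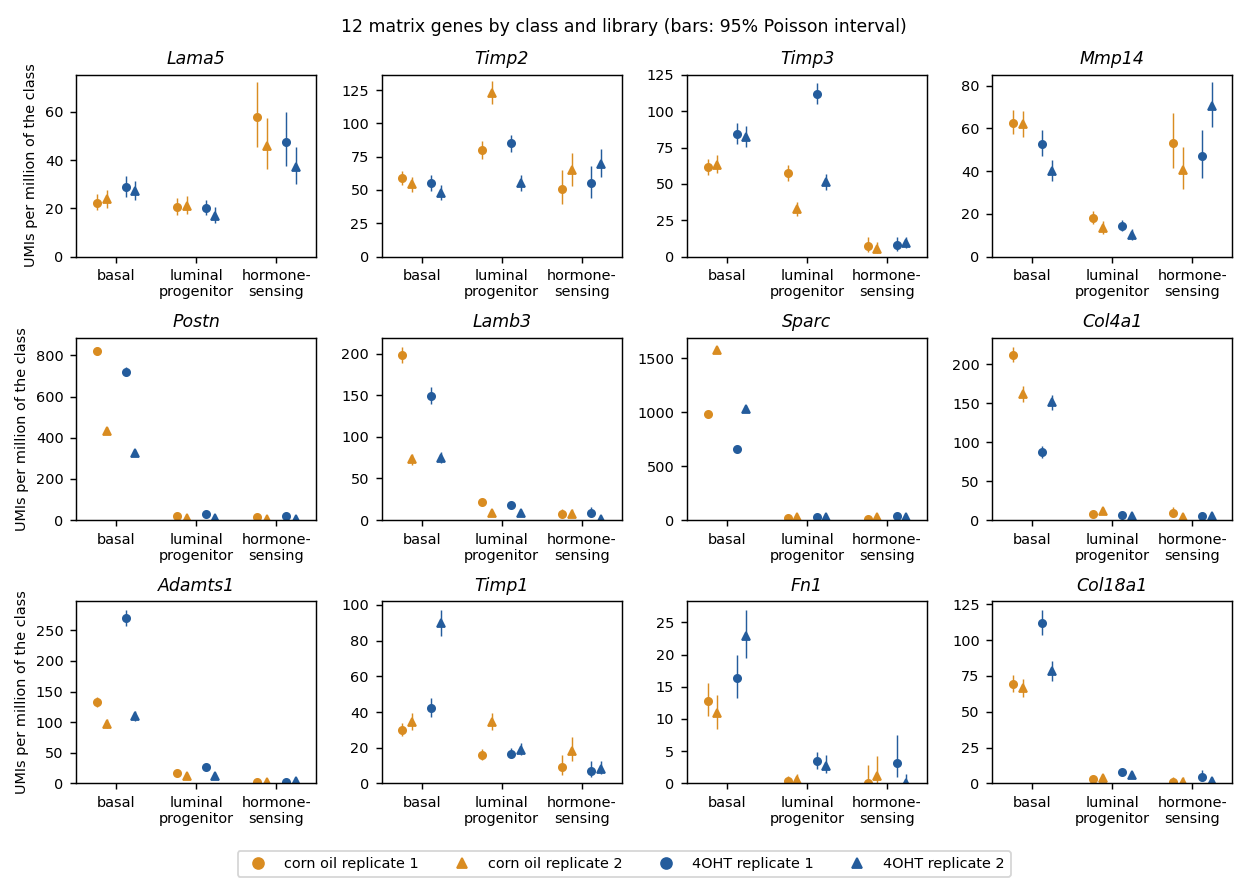
CPM (y axis, linear, from 0) of 12 members in the 3 epithelial classes (x axis), 1 point per library with its exact 95% Poisson interval, which covers counting error only. Circles are libraries numbered 1, triangles those numbered 2. Lama5 is highest in hormone-sensing cells, Timp3 is low there alone, Mmp14 is low in luminal progenitors, and Postn and Lamb3 in basal cells are higher in both libraries numbered 1.

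The share of cells with at least 1 UMI of a gene was computed on cells reduced at random to 1000 UMIs each. Sparc was seen in 49.5%, 64.8%, 41.2% and 51.1% of basal cells, 1.40%, 2.12%, 1.24% and 2.37% of luminal progenitors and 0.662%, 2.42%, 2.08% and 2.01% of hormone-sensing cells. Serpinh1 was seen in 59.2%, 55.9%, 45.4% and 49.7% of basal cells and 8.37%, 7.95%, 7.57% and 5.15% of progenitors. Unthinned, Sparc was seen in 84.2%, 87.1%, 72.2% and 74.98% of basal cells and 7.13%, 10.3%, 4.58% and 6.96% of progenitors, whose median UMIs per cell were 5152, 3172, 3850.00 and 2828 in basal cells and 5282, 4780.00, 4375 and 3473 in progenitors. Thinned leukocyte-like cells, which should lack Sparc, showed it in 8.33% and 0% of 24 and 26 cells. Postn was seen in 38.1%, 28.3%, 41.3% and 23.05% of thinned basal cells, and Col4a1 in 16.4%, 13.6%, 6.97% and 11.4%. Most members were found in few basal cells at this depth: the median over the 37 genes of the mean share was 3.24%. In the progenitors the same 4 genes were seen in at most 8.37% of cells.

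Genes beside the list showed the same side for some groups and not for others. Over all genes tested, 29.5% were higher and 26.3% lower in basal than in progenitor cells. Of 15 further genes for collagen folding and modification, 13 were tested in basal against progenitor cells, 12 were higher and 0 lower, among them the hydroxylase genes Plod1 (log2 3.07) and P4ha1 (1.96). Of 17 fibrillar and interstitial matrix genes, 11 were tested, 8 were higher and 1, Col6a3 (−1.80), lower. Elastin (Eln) differed by 5.30 and biglycan (Bgn) by 4.95. Of 20 other basement membrane genes, 9 were tested, 5 higher and 1 lower, with hemicentin-1 (Hmcn1) at 5.49 and netrin-1 (Ntn1) at −4.41. Of 20 matrix receptors and anchors, 19 were tested, 12 higher and 6 lower: the integrin genes Itga5 (4.10) and Itga6 (2.44) were higher in basal cells, Itgb6 (−3.56) and Itgb8 (−2.20) lower. Of 18 other proteases and inhibitors, 8 were tested, 7 higher, such as Htra1 (5.04), and 1, Mmp15 (−3.53), lower. Of 14 stress genes of cell preparation, 4 were higher and 4 lower in basal than in progenitor cells. Against hormone-sensing cells, 10 of the 14 were higher and 0 lower in basal cells, beside 31.6% higher and 27.9% lower among all genes. In progenitors against hormone-sensing cells, 12 were higher and 0 lower, beside 25.9% higher and 26.1% lower among all genes. The part of these stress genes in the member differences from hormone-sensing cells was not tested. Stromal markers in basal sums came to 21.3 to 41.1 CPM and were mostly Fstl1, while Lum, Pdgfra and Col1a2 were each at most 3.83 CPM in any basal library. Endothelial markers came to 1.35 to 3.19 CPM and pericyte markers to 5.35 to 10.6 CPM.

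Stromal cells, read only in corn oil replicate 2 (71 cells) and 4OHT replicate 1 (23 cells), differed from basal cells in many of these genes. Of 36 members tested against basal cells of the same 2 libraries, 12 were higher and 9 lower in stromal cells, beside 6.24% higher and 9.46% lower among 9618 genes. The lower ones include Col17a1, Col4a6, Lama1 and Col7a1, with 0 stromal UMIs, and the higher ones Thbs2, with 0 basal UMIs. Such members passed the filter through 1 class alone and could be called in 1 direction only. The libraries belong to different treatment groups and leave 1 residual degree of freedom. Higher in stroma were Loxl1 at 192 and 85.8 CPM (log2 6.36, SE 0.59), Lox (log2 6.03, SE 0.75) and Nid1 at 236 and 110.3 CPM (log2 4.87, SE 0.50). Fn1 stood at 396 and 110.3 CPM (log2 3.91, SE 0.45), Timp1 at 882 and 429 CPM (log2 3.73, SE 0.37) and Timp2 at 773 and 404 CPM (log2 3.07, SE 0.36). These crosslinking enzymes, nidogen-1, fibronectin and both inhibitors thus had their highest CPM in stromal cells. The other members called higher were Loxl2 (log2 3.43), Fbln1 (3.28), Mmp2 (2.77), Fbln2 (2.65) and Mmp14 (1.23). Thbs2 had 24 and 4 UMIs in these stromal sums and 0 in basal cells, at least 326-fold higher with 3 counts over the group as the limit.

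Lower in stroma were Lamb3 at 3.63 and 0 CPM (log2 −5.32, SE 0.84), Lama3 (log2 −4.57, SE 0.95) and Col4a5 (log2 −3.21, SE 0.90). Col17a1, Col4a6, Lama1 and Col7a1 had 0 stromal UMIs, and by the same limit were at least 7.19-fold, 2.85-fold, 1.91-fold and 1.72-fold lower than in basal cells. Postn (log2 −1.70, SE 0.35) and Dag1 (log2 −1.48, SE 0.49) were the other members called lower. Counting single libraries with a prior of 1 UMI, Dag1, Lama1 and Col7a1 had mixed signs, so their libraries did not give the same direction. The hemidesmosome genes Col17a1, Lama3 and Lamb3 thus had higher levels in basal than in stromal cells. In edgeR, Dag1 did not pass by total counts, with the stricter gate or with no library term. Nor did it pass with genes of at least 20 CPM, with cells of at least 2000 UMIs or without Acta2 in the gate. Lama1 was lost with no library term and without Acta2, Col7a1 with no library term and with 2000 UMIs, and Postn at 20 CPM. Among those called higher, Mmp14 was lost without the low count filter and with no library term. With DESeq2 in place of edgeR, 11 members were called higher and 3, Lamb3, Lama3 and Col17a1, lower. Col4a5 (DESeq2 adjusted p = 0.203), Col4a6 (adjusted p = 0.119), Postn (adjusted p = 0.0587), Dag1 (adjusted p = 0.357) and Mmp14 (adjusted p = 0.132) did not pass, and DESeq2 gave no adjusted p for Lama1 and Col7a1.

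Endothelial-like cells held the highest mean of Timp3, Nid2 and Adamts1. Timp3 stood at 665, 569 and 497 CPM in corn oil replicate 2, 4OHT replicate 1 and 4OHT replicate 2. These values were above those of the other classes in every library with at least 20 cells of the class. Adamts1 stood at 191, 299.6 and 351 CPM, which overlapped the basal libraries. Leukocyte-like cells, 24 in corn oil replicate 2 and 26 in 4OHT replicate 1, held 336 and 309.9 CPM of the list in all.

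The second question was whether matrix genes differed between 4OHT and corn oil libraries. In basal cells, 0 of 33 members passed the threshold, as did 0.00% of 10788 genes (edgeR's quasi-likelihood test), while 3 members and 4.31% of genes had an unadjusted p under 0.05. The members' median log2 difference was −0.23, against −0.02 for all genes, with 13 of 33 positive. Replicates of the same number gave a median of −0.19 for the pair numbered 1 and −0.17 for the pair numbered 2, and 18 members were lower and 11 higher in 4OHT in both. The share of all genes with the same sign in both pairs was not counted, and the labels do not say that numbers pair mice. The 4OHT and corn oil libraries did not overlap for 17 of the 33, 7 higher and 10 lower, beside 30.7% of all genes. With 2 libraries a group, these differences cannot be told from the spread between libraries. The cells in no class with both keratin sets were more numerous in both 4OHT libraries, and their part in these values was not tested. Of the 14 stress genes of cell preparation, 0 passed and 4 had an unadjusted p under 0.05 (edgeR), with a median log2 of 0.44. Of 13 fibrillar and interstitial matrix genes tested, 0 passed and 4 had such a p, with a median of −0.50. Each of the other further lists had 0 or 1 such gene. The part of preparation stress in the member values was not tested.

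The type IV collagens and the linkers had negative differences in basal cells. Their tested members, 4 of each, all had a negative sign, with medians of −0.44 and −0.45, and 0 of 8 passed. Other role groups went both ways. Medians were 0.14 for the laminin chains, 0.14 for the other basement membrane collagens and 0.18 for the proteases and inhibitors. They were −0.24 for the glycoproteins and −0.12 for collagen folding and crosslinking. The share of negative signs over all genes was not counted. Col4a5 was at 43.00, 51.7, 25.4 and 30.7 CPM, lower in both 4OHT libraries, with a log2 difference of −0.70, SE 0.29 (edgeR adjusted p = 0.999). Col4a1 was also lower in both 4OHT libraries, and 4OHT replicate 1, at 87.4 CPM, was the lowest of the 4.

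The 3 other members with the smallest p in basal cells were positive. Timp1 was at 30.03, 34.4, 42.3 and 89.7 CPM, with 4OHT replicate 2 far above the rest and 4OHT replicate 1 near the corn oil libraries (log2 1.11, SE 0.43, edgeR adjusted p = 0.999). Without 4OHT replicate 1 its difference was 1.62 and passed (edgeR adjusted p = 0.0147), and without 4OHT replicate 2 it was 0.34 (edgeR adjusted p = 1.000). The UMIs of Timp1 came from 82, 89, 124 and 223 basal cells. Fn1 (ENSMUSG00000026193, chromosome 1, 71585520 to 71653200, minus strand) was at 12.9, 10.9, 16.3 and 22.9 CPM (log2 0.79, SE 0.32, edgeR adjusted p = 0.999), and Col18a1 at 69.7, 66.4, 112 and 78.3 CPM (log2 0.51, SE 0.23, edgeR adjusted p = 0.999). Both 4OHT libraries were above both corn oil libraries for these 3 genes, and none of the 3 passed.

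Some basal levels did not overlap between libraries of different replicate number. The share of all genes split in this way was not counted. Postn and Lamb3 were higher in both libraries numbered 1 than in both numbered 2, and so was Tnc at 14.7, 4.59, 18.5 and 6.98 CPM. Sparc and Lama1 were the other way round, higher in both libraries numbered 2. Within each number Sparc was also lower in 4OHT, by log2 −0.58 and −0.61. Counting intervals of these libraries were narrow beside the gaps: for Postn the exact 95% Poisson interval was 803 to 843 CPM in corn oil replicate 1 and 418 to 450.2 CPM in corn oil replicate 2. The labels do not say what a number stands for.

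In luminal progenitors 0 of 27 members passed, as did 0.00% of 10120 genes (edgeR), and 2 members and 1.64% of genes had an unadjusted p under 0.05. Fn1 had 3, 3, 29 and 17 UMIs in the 4 libraries, in 3, 3, 18 and 11 cells, or 0.413, 0.496, 3.45 and 2.74 CPM. Both 4OHT libraries were higher, by log2 2.82, SE 0.62 (edgeR adjusted p = 1.000), and with no filter on low counts the gene passed (edgeR adjusted p = 0.0451). Stromal markers in the progenitor sums were 3.03, 1.65, 12.5 and 1.13 CPM, highest in 4OHT replicate 1, and the part of other cells in this count was not tested. Col18a1 was at 2.89, 3.97, 7.97 and 5.80 CPM (log2 1.10, SE 0.41, edgeR adjusted p = 1.000). The groups did not overlap for 3 members higher and 8 lower of 27, beside 24.9% of all genes, and the members' median was −0.07.

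In hormone-sensing cells 13 members had enough counts and 0 passed (edgeR), beside 0.0132% of 7589 genes, and 1 member and 3.16% of genes had an unadjusted p under 0.05. Agrn was at 19.3, 25.3, 14.2 and 6.30 CPM, lower in both 4OHT libraries (log2 −1.24, SE 0.45, edgeR adjusted p = 1.000). Sparc was at 9.25, 23.5, 41.8 and 29.5 CPM, higher in both (log2 1.02, SE 0.46, edgeR adjusted p = 1.000). Neither passed. 4OHT replicate 1 of this class also held 282, 95.9, 1400.3 and 295 CPM of fibrillar matrix genes and 0, 2.94, 22.5 and 0.394 CPM of stromal markers in the 4 libraries, highest in that library in both cases, and the part of stromal RNA in the Sparc value was not tested. The groups did not overlap for 4 members, 2 in each direction, beside 30.5% of all genes.

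The difference of the 4OHT effect between basal and luminal progenitor cells was tested with the library as a block. None of 33 members passed, as did 0.00% of 11434 genes (edgeR), and 6 members (Fn1, Timp1, Nid1, Sparc, Postn and Mmp2) and 3.75% of genes had an unadjusted p under 0.05. Timp1 passed without corn oil replicate 1 (1.63, edgeR adjusted p = 0.0346) and Sparc without 4OHT replicate 2 (−1.49, edgeR adjusted p = 0.00574). The basal difference of Sparc was −0.54 and its progenitor difference 0.34, and neither passed.

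**Figure D4:**
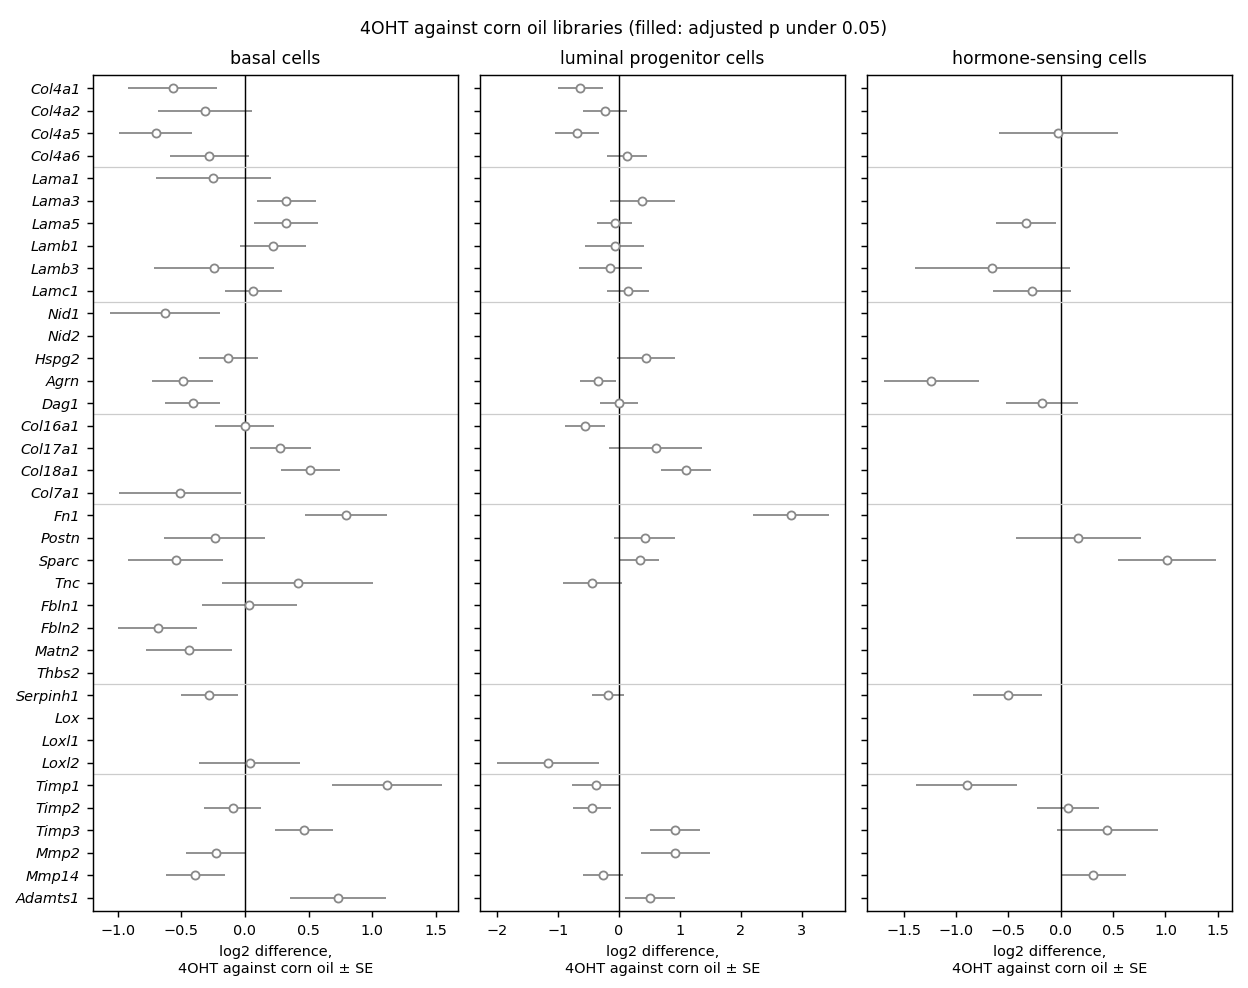
Log2 difference ± SE (x axis) of 4OHT against corn oil, 2 libraries each, for the members tested (rows, by role) in basal, luminal progenitor and hormone-sensing cells. All points are open because none passed the test, and the Fn1 point in luminal progenitors, at 2.82, lies farthest from 0.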

How the data were processed

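The deposited matrices hold raw UMI counts per gene and cell barcode, made by the authors with Cell Ranger 3.0.1 on mm10 (GRCm38.91), per the submitters' processing notes and the labels. They come from 4 libraries of 3546, 4323, 4809 and 5545 barcodes. Handling of strand and introns is not given in the sources used here, so antisense and overlapping genes, such as Col4a1 and Col4a2 at their starts, may share counts. The labels give the injection course as 5 days in one place and longer in another. The design text gives 2 mice per condition.

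Counts were summed per library and class with Python 3.11.15 and tested with edgeR 4.0.16 in R 4.3.3 (TMM, filterByExpr, quasi-likelihood F-test, Benjamini-Hochberg 0.05). The code was run on simulated data with large changes and no differences between libraries other than depth. That run therefore cannot show how the tests behave for small differences in these libraries. SE is the log2 difference divided by the square root of F. Class comparisons had the library as a term. DESeq2 1.42.0 was an alternative. No doublet caller was run. Cells with both keratin sets fell outside the classes. Poisson and Clopper-Pearson intervals are exact, at 95%, and cover counting error only, as does the limit of 3 counts for a count of 0. The members and all gene lists were chosen with earlier results of these data known. In class comparisons any tested member could be named. In the 4OHT comparisons, where none passed, those with the smallest p were named, 4 in basal cells and 2 in each luminal class. At most 4 genes were named per further list. The further genes with values (Nid2, Col4a1 by treatment, and those by replicate number) were chosen after their values were seen. So were the role groups named first for 4OHT in basal cells. Promoter sequences are from RefSeq (GRCm38.p6).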

Additional observations from a re-analysis of the deposited data

Results flagged for a closer look

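Cells with at least 5 UMIs of both keratin sets, which none of the comparisons used, made up 9.64% of the deposited cells in corn oil replicate 1, 6.57% in corn oil replicate 2, 17.4% in 4OHT replicate 1 and 15.7% in 4OHT replicate 2, a mean of 16.6% ± 1.17 (SD, n = 2) with 4OHT against 8.11% ± 2.17. The 37 genes summed to 4573 and 3798 CPM in these cells of the corn oil libraries and to 3543 and 3156 CPM in those of the 4OHT libraries. Lamb3 appeared in leukocyte-like cells, which were part of none of the tests, at 83.9 and 130.5 CPM in corn oil replicate 2 and 4OHT replicate 1. This was a mean of 107 CPM from 5 and 8 UMIs in 5 and 6 cells. Luminal progenitors of the same libraries held 8.10 and 18.1 CPM. Basal libraries ran from 73.0 to 198 CPM, a range that holds both leukocyte-like values. With 2 libraries per group, single libraries could not be tested as outliers.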

How the results depend on the processing

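All counts here are of genes or members past the threshold. For 4OHT in basal cells the count of genes was 38 with DESeq2, 93 without the low count filter and 17 to 127 with 1 library left out, and that of members 0 to 1. In luminal progenitors it was 1 with DESeq2 and with the stricter keratin gate, 39 without the filter (1 member) and 31 to 64 with 1 library left out. In hormone-sensing cells it was 7 with DESeq2, 59 without the filter, 0 with genes of at least 20 CPM and with cells of at least 2000 UMIs, and 4 to 80 with 1 library left out. With 1 library left out, the lone library of an arm is assumed to vary like the other arm. For the difference of effect it was 55 without the filter (1 member) and 0 to 63 genes and 0 to 1 members with 1 library left out. Samples of 1 number deviated together (correlations of 0.57, 0.32 and 0.22 in the 3 classes), but 2 pairs do not show that numbers pair mice. With a replicate block, 167, 9 and 3 genes passed in the 3 classes, with 0 members in each; in basal cells 1609 of 10788 genes and 14 of 33 members then had an unadjusted p under 0.05.

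Limiting class tests to genes of at least 20 CPM tested fewer genes: 2595 genes and 20 members passed for basal against luminal progenitor cells, 2925 and 20 for basal against hormone-sensing cells, 2477 and 5 between the luminal classes, and 933 genes for stromal against basal cells, where DESeq2 gave 682. Stromal cells could not be tested with 1 library left out. Signs turned in uncalled members: Lama5 in basal against luminal progenitor cells (−0.036 to 0.19 with 1 library left out), Timp3 there (−0.078 with no library term, −0.20 to 0.31 with 1 library left out), and, in basal against hormone-sensing cells, Timp2 (0.038 with the stricter gate) and Mmp14 (0.030 by total counts, 0.056 without the filter, −0.19 to 0.25 with 1 library left out). The cause was not tested. The median share of basal cells with a UMI was 12.8% unthinned and 6.90% at 2000 UMIs. Members with few UMIs, such as Nid1 and Lox, are limited by depth.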
